A study of Mus musculus with 32 samples.

Results

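The genes described here are 34 genes of ribosome biogenesis and of growth metabolism that are widely used as readouts of the transcription factor MYC, out of 33924 genes in the count table. The rule is a list of gene names grouped by known function and uses no threshold on the values, but it was drawn up with earlier results of these data known. By role they are 2 core subunits of RNA polymerase I (Polr1a, Polr1b), 3 proteins of the box C/D small nucleolar particles (Fbl, Nop56, Nop58) and 4 of the box H/ACA particles (Dkc1, Gar1, Nhp2, Nop10). A further 5 are nucleolar chaperones and scaffolds (Ncl, Npm1, Nolc1, Ddx21, Mybbp1a), 7 process the small ribosomal subunit (Heatr1, Utp20, Wdr43, Rrp9, Noc4l, Rrp12, Tsr1) and 10 assemble the large subunit (Bop1, Pes1, Wdr12, Ppan, Gnl3, Nop2, Nop16, Wdr74, Rrs1, Nip7). The last 3 are enzymes of polyamine and pyrimidine synthesis (Odc1, Srm, Cad). All 34 were in the table, are annotated as protein coding and passed the filter on low counts in each fit.

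Ribosomes are built in the nucleolus, where RNA polymerase I transcribes a long precursor RNA that small nucleolar particles modify and that processing and assembly factors cut and fold into the subunits. MYC, with its partner MAX, binds the E-box sequence CACGTG and is known to raise the transcription of many of these factors, while the MXD proteins and MNT compete with it for MAX. Red cell precursors make many ribosomes while they divide, and inherited defects of ribosome production are known causes of anaemia.

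RNA was sequenced from LSK cells (marrow cells with Sca1 and Kit and without lineage markers, which hold stem and multipotent progenitors) and from MEP (megakaryocyte-erythroid progenitors), 16 libraries of each. All groups carried Jak2V617F, an activated form of the cytokine receptor kinase JAK2, which had been switched on outside the body with Dre mRNA before the cells were transplanted into lethally irradiated hosts. Batch A held vehicle (4 LSK, 3 MEP), tamoxifen for 3 days (3 LSK, 4 MEP) and tamoxifen for 7 days (4 LSK, 3 MEP); tamoxifen activates Cre and removes Jak2V617F. Batch C held its own vehicle (2 LSK, 3 MEP) and 7 days of ruxolitinib (3 LSK, 3 MEP), an inhibitor of JAK1 and JAK2. The labels describe no animals given tamoxifen without an allele that Cre can delete, no promoter for Cre, no age, and no cells without Jak2V617F. Effects of tamoxifen and of Cre therefore cannot be told apart from those of the deletion. Vehicle libraries are labelled day 0 and treated libraries day 3 or 7, so time cannot be told apart from treatment either. Vehicle libraries of batches A and C carry the same sample numbers (12 and 18 in LSK, 12, 32 and 33 in MEP), and several LSK and MEP libraries share a number. Number 18 also occurs among the LSK and MEP libraries of 7 days of tamoxifen. The labels do not say whether libraries of a group came from separate mice, so the p-values measure the spread between these libraries, which may be technical.

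MYC binding was not measured. The E-box CACGTG was searched for, on both strands (it reads the same on both), in the window from 250 bases before to 50 bases after the RefSeq gene start. A window was held for 28 of the 34 members and not for Bop1, Fbl, Npm1, Rrp12, Rrs1 and Srm. Of the 28, 6 (21.4%) had the motif, against 2187 of 27025 genes (8.09%) and 1559 of 17492 protein-coding genes (8.91%). The 6 sites are shown because they are the places where these letters occur in the members' windows; the E-box is in capitals and each sequence runs 5′ to 3′ on the strand of its gene (RefSeq, build GRCm38.p6).
Nop2, plus strand, chr6:125131811-125131840: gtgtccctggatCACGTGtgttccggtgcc
Utp20, minus strand, chr10:88826765-88826789: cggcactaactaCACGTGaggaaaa
Pes1, plus strand, chr11:3963965-3963994: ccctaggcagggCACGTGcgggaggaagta
Mybbp1a, plus strand, chr11:72441355-72441376: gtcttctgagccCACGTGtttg
Tsr1, plus strand, chr11:74898092-74898121: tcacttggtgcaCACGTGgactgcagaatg
Wdr43, plus strand, chr17:71616220-71616249: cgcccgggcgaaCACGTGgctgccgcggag

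The Nop2 motif began 60 bases before the start (position -60) and the other 5 lay after it, from position 3 in Pes1 to position 41 in Mybbp1a. The sequences around the 6 motifs differed. These are matches of letters in a window and are not measured binding sites.

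Total counts ran from 11160696 to 55473241 per library, with 26511752 to 55473241 in batch C and 11160696 to 28838622 in batch A. Jak2 itself lay between 11.8 and 38 CPM (counts relative to the TMM-scaled library size) and passed in none of the 6 treatment comparisons (edgeR, log2 change -0.51 to 0.24). Which exons Cre removes is not stated, and reads were summed over the full gene, so the Jak2 level is no check of the labels. Summed erythroid markers were 14300 to 22500 CPM in vehicle MEP of batch A and 1590 to 3500 CPM in LSK, and the stem marker Ly6a (Sca1) was at most 0.0409 CPM in those MEP and 55.7 to 183 CPM in LSK. These marker values are scaled within each cell type. One library stood apart for the members: day 7 MEP replicate 2, the shallowest (11160696 counts), had the lowest CPM of the 16 MEP libraries for all 34 members. Its TMM factor, which lowers the CPM as it grows, was 1.92, against 0.64 to 1.38 in the other MEP libraries. The members took 1.35% of its unscaled counts, the same share as in vehicle MEP replicate 2 of batch C. Vehicle MEP replicate 1 of batch A was the highest of its group for 31 members, and day 3 LSK replicate 3 was the lowest of the 16 LSK libraries for 24. Results that rest on such libraries are given with and without them.

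The 34 members took 0.946% to 1.22% of all counts in vehicle LSK of batch A and 1.48% to 1.86% in vehicle MEP. The levels per kilobase that follow are scaled within each cell type, so LSK and MEP values are not on one scale. Per kilobase of exon, nucleophosmin (Npm1), an abundant nucleolar chaperone, had the highest level in both cell types, 494 ± 106 CPM per kb in LSK (SD, n = 4) and 1050 ± 176 in MEP (SD, n = 3). Nop56, Nhp2, Ncl and Nop10 followed, between 154 and 178 CPM per kb in LSK and between 267 and 436 in MEP. These 4 neighbours did not differ beyond their spread in LSK (178 ± 20.9, 167 ± 31.7, 159 ± 30.4 and 154 ± 42, SD, n = 4). Lowest were Rrs1 (2.06 ± 0.274) and Gar1 (3.3 ± 0.59) in LSK, and the same pair in MEP (4.37 ± 1.25 and 4.07 ± 0.671, SD, n = 3), where their ranges overlapped. The smallest count of any member in a library was 47, for Gar1. Npm1 is known to have many processed pseudogenes, and how reads that match several places were counted is not known here, so its level is uncertain.

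The first comparison asked how these genes differ between MEP and LSK that carry Jak2V617F under vehicle. Ribosome biogenesis genes were higher in MEP as a group: 29 of the 34 passed the test in batch A and 22 in batch C, each of them higher in MEP. The median difference was 1.02 on the log2 scale in batch A and 1.14 in batch C, against 0.22 and 0.41 over expressed genes (mean CPM of at least 10). Ornithine decarboxylase (Odc1), Nhp2, Noc4l, Wdr74 and Npm1 were among the members with the largest differences in both batches. Cad did not pass in either batch.

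Of all genes tested, 8.7% were called higher in MEP in batch A and 8.09% in batch C (edgeR quasi-likelihood test, Benjamini-Hochberg adjusted p under 0.05), and among expressed genes 24.7% and 22.8%. The members' shares were 85.3% and 64.7%. In each batch 30 members had every MEP library above every LSK library, where 27.7% of expressed genes did so in batch A and 39.5% in batch C (10.6% and 16.4% of all genes tested). All 34 differences were positive in both batches; with the fit restricted to expressed genes, Cad was at -0.03 in batch A and Gar1 at -0.22 in batch C, the members' medians were 0.71 and 0.70, and 31 and 25 of the 33 members kept by that filter passed. That restricted fit changes the scaling, the estimate of the spread and the number of genes tested together, and their parts were not tested.

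For these values LSK and MEP libraries were scaled together. Odc1, the enzyme that commits ornithine to polyamine synthesis (chr12:17544794-17551505, plus strand), was at 20.5, 17.8, 16.4 and 13.4 CPM in the 4 vehicle LSK of batch A and at 93.2, 46.4 and 56.9 in the 3 MEP. In batch C it was at 40.7 and 45.6 in LSK and 193, 180 and 162 in MEP. The groups did not overlap in either batch, and the differences were 1.94 ± 0.27 (SE, adjusted p = 2.02e-06) and 2.05 ± 0.35 (adjusted p = 4.13e-05, both edgeR), the largest of any member in each batch.

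Nhp2, a core protein of the box H/ACA particles that guide pseudouridylation (chr11:51619735-51623714, plus strand), was at 182, 201, 139 and 125 CPM in LSK and 623, 501 and 502 in MEP of batch A. In batch C it was at 261 and 297 in LSK and 868, 755 and 812 in MEP. Each MEP library lay above each LSK library of its batch, with differences of 1.74 ± 0.28 (adjusted p = 2.25e-05) and 1.54 ± 0.36 (adjusted p = 0.0019, edgeR). Noc4l, a factor of small subunit maturation (chr5:110648418-110653417, minus strand), was at 138, 180, 95.6 and 125 CPM in LSK and 506, 400 and 314 in MEP of batch A. In batch C it was at 174 and 225 in LSK and 733, 588 and 671 in MEP. It too was separated in both batches, by 1.60 ± 0.31 (adjusted p = 0.000278) and 1.73 ± 0.40 (adjusted p = 0.00176, edgeR).

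Npm1 was at 1260, 1390, 810 and 998 CPM in LSK and 3580, 2450 and 3070 in MEP of batch A, a difference of 1.44 ± 0.30 (adjusted p = 0.000547, edgeR). In batch C it was at 1540 and 1270 in LSK and 3140, 2420 and 5800 in MEP, with a difference of 1.43 ± 0.38 (adjusted p = 0.00649, edgeR). MEP replicate 3 of batch C was far above the other MEP libraries for Npm1, and also for nucleolin (Ncl), an RNA-binding nucleolar protein, at 3220, 2580 and 6180 CPM in the 3 MEP. Ncl was 1.14 higher in MEP in batch A and 1.25 in batch C (adjusted p = 0.00488 and 0.0151, edgeR).

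The higher level in MEP ran through the roles in batch A. All 7 small subunit factors passed (median 1.22), 9 of the 10 large subunit factors (0.99, all but Bop1), and all 3 box C/D proteins (0.94). Of the chaperones 4 of 5 passed (1.39, all but Mybbp1a), of the H/ACA proteins 3 of 4 (1.13, all but Gar1), and of the RNA polymerase I subunits 1 of 2, Polr1b at 0.85 ± 0.30 with Polr1a at 0.82 ± 0.31 (adjusted p = 0.0453 and 0.0661, edgeR). Cad, which carries the opening steps of pyrimidine synthesis, was at 190, 597, 305 and 169 CPM in LSK and 369, 420 and 281 in MEP, so that LSK replicate 2 lay above all 3 MEP libraries.

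**Figure D1:**
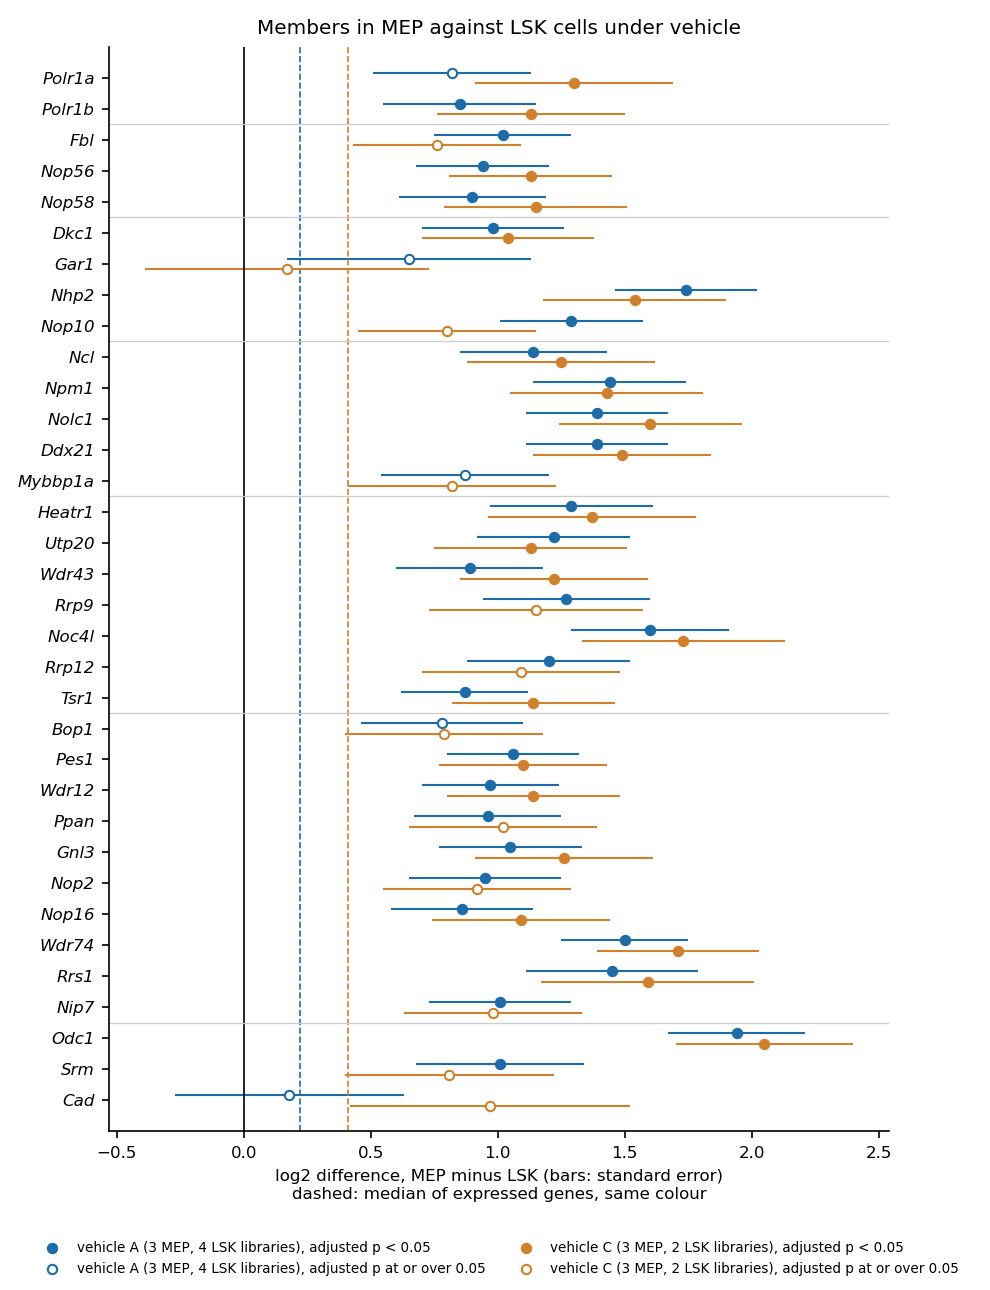
Log2 difference MEP minus LSK under vehicle (x axis) for the 34 members (y axis, grouped by role), with batch A (3 MEP, 4 LSK) in blue and batch C (3 MEP, 2 LSK) in orange; points are edgeR estimates, bars are SE, filled points have an adjusted p under 0.05 and the dashed lines are the medians of expressed genes. All points lie to the right of 0, from 0.17 for Gar1 in batch C to 2.05 for Odc1 in batch C.

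The count in batch A fell to 13 members without MEP replicate 1 and otherwise stayed between 21 and 32 when a library was left out. It was 16 with the replicate number as a block. That block was set within each cell type, so its estimate is the difference at replicate 1, not one averaged over replicates. In batch C, with 2 LSK libraries, the count fell to 7 without MEP replicate 3 and to 8 without either LSK library. It was 2 (Noc4l, Odc1) when the spread was estimated from these 5 libraries alone. Odc1 passed under each of the 14 alternatives in batch A and 12 in batch C. The median stayed positive throughout, between 0.71 and 1.22 in batch A and between 0.70 and 1.38 in batch C. MEP and LSK also differ in dividing cells: summed CPM of 15 cycling genes was 6200 to 8000 in vehicle MEP and 3850 to 5300 in vehicle LSK of batch A, each on its own cell type's scale, and the part of this in the members' levels was not tested.

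Deletion of Jak2V617F for 7 days was the treatment with the most calls among the members. In MEP, 8 of the 34 fell against vehicle and none rose: Noc4l, Cad, Nhp2, Wdr43, Rrp9, Odc1, Ppan and Wdr74. All 34 estimates were negative (28 of 33 with the fit restricted to expressed genes), with a median of -0.61 on the log2 scale and a range from -1.70 (Noc4l) to -0.23 (Polr1b). Of expressed genes 75.8% were also at a negative estimate in these libraries. As a share of unscaled counts, the members took 1.35% to 1.54% at day 7 and 1.48% to 1.86% under vehicle. The part of the TMM scaling in the fall was not tested. In bulk RNA, fewer cells of a type and less RNA per cell cannot be told apart.

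The 8 members make 23.5% of the 34. Of all genes tested 8.42% were called in either direction and 7.03% were called lower, and of expressed genes 20.7% were called lower, so the share called was near that of other expressed genes. The members' median lay below that of expressed genes (-0.39, quartiles -0.75 and -0.01), with 29 of 34 below it. In 22 members all 3 day 7 libraries lay below all 3 vehicle libraries, where 39.9% of expressed genes did (14.7% of all genes tested). With the fit restricted to expressed genes, the 5 members at a positive estimate were Polr1a, Polr1b, Mybbp1a, Wdr12 and Nop2, the members' median was -0.22 beside 0.01 for expressed genes, and 10 of 33 were called lower.

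From here CPM are scaled within each cell type, so LSK and MEP values below are not on one scale. Noc4l was at 450, 371 and 300 CPM in the vehicle MEP, 310, 243, 299 and 231 at day 3 and 143, 54.4 and 147 at day 7. No day 7 library reached the day 3 or vehicle range. The change at day 7 was -1.70 ± 0.30 (adjusted p = 0.000348, edgeR), and without replicate 2, the lowest at 54.4 CPM, the call remained.

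Nhp2 was at 554, 465 and 480 CPM under vehicle, 386, 319, 320 and 243 at day 3 and 213, 145 and 216 at day 7. All day 3 libraries were already below all vehicle libraries, and all day 7 libraries were below all day 3 libraries. At day 3 the difference did not pass (-0.66 ± 0.23, adjusted p = 0.272, edgeR), and at day 7 it did (-1.38 ± 0.25, adjusted p = 0.000472, edgeR).

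Cad (chr5:31054780-31078479, plus strand) had another course. It was at 329, 390 and 269 CPM under vehicle, at 445, 855, 577 and 665 at day 3 and at 125, 67.4 and 151 at day 7. Each day 3 library lay above, and each day 7 library below, the vehicle libraries. The day 3 estimate of 0.95 ± 0.29 did not pass (unadjusted p = 0.00332, adjusted p = 0.15, edgeR), while the fall at day 7 against vehicle (-1.52 ± 0.31, adjusted p = 0.00175) and against day 3 (-2.47 ± 0.31, adjusted p = 2.3e-06) did.

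**Figure D2:**
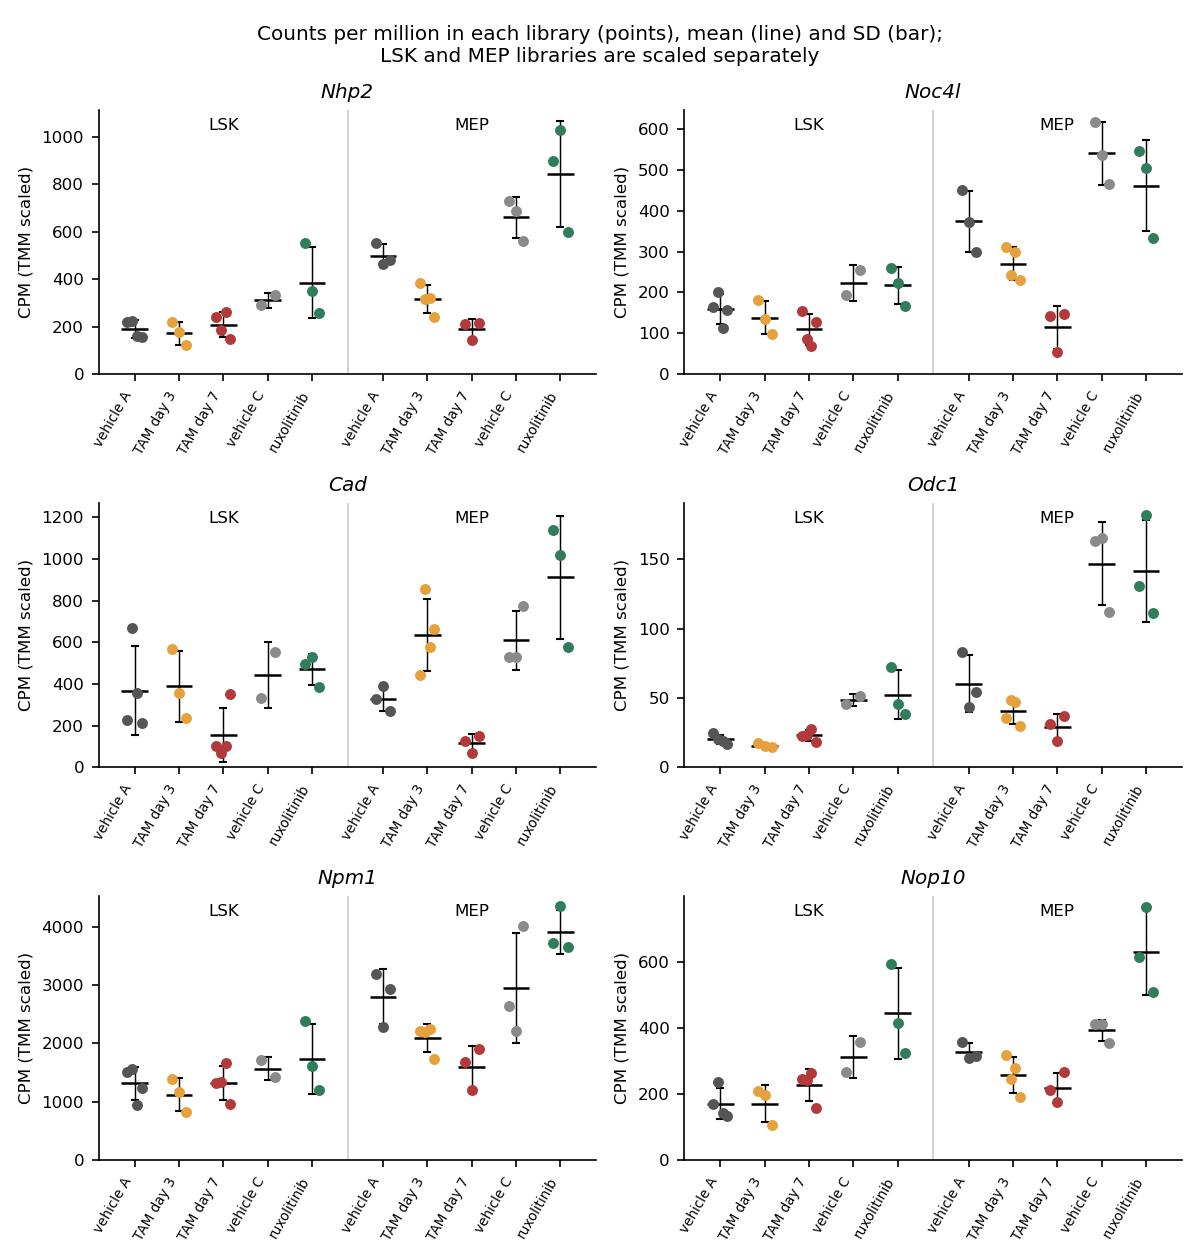
CPM (y axis, 1 panel per gene) of Nhp2, Noc4l, Cad, Odc1, Npm1 and Nop10 in each of the 32 libraries, by group (x axis); points are libraries, lines the group mean and bars the SD, and LSK and MEP libraries are scaled separately. In MEP, the day 7 libraries of Noc4l sit between 54.4 and 147 CPM, below the vehicle libraries at 300 to 450, and Cad is at 445 to 855 at day 3.

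Among the small subunit factors (median -0.60, 3 of 7 called) Wdr43 and Rrp9, a factor that binds the small nucleolar RNA of small subunit processing, also fell. Wdr43, the one of these 8 members whose window held an E-box, was at 594, 443 and 576 CPM under vehicle and 288, 185 and 303 at day 7 (-1.06 ± 0.28, adjusted p = 0.0153, edgeR). Rrp9 was at 296, 156 and 180 CPM under vehicle and 129, 54.8 and 120 at day 7 (-1.06 ± 0.30, adjusted p = 0.0261, edgeR). The day 7 libraries of both lay below the vehicle libraries, with replicate 2 lowest. At day 3 Wdr43 was at 631, 510, 525 and 417 CPM and Rrp9 at 207, 178, 191 and 151, within or near the vehicle range. The other 4, Heatr1, Utp20, Rrp12 and Tsr1, had estimates between -0.60 and -0.49 and did not pass.

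Of the 10 large subunit factors (median -0.60) Ppan and Wdr74 fell, by 0.87 and 0.85 on the log2 scale (adjusted p = 0.0464 and 0.0266, edgeR). Ppan was at 340, 242 and 253 CPM under vehicle and 208, 94.2 and 155 at day 7, and Wdr74 at 286, 227 and 235 under vehicle and 144, 98.7 and 171 at day 7. In both genes the day 7 libraries lay below the vehicle libraries. The partners Bop1, Pes1 and Wdr12, which form 1 complex, had estimates of -0.76, -0.57 and -0.32 and did not pass, nor did Nip7, Gnl3, Nop2, Nop16 and Rrs1 (-0.71 to -0.33).

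Of the enzymes (median -1.06) Odc1 fell beside Cad. Odc1 was at 83, 43.1 and 54.4 CPM under vehicle, 35.6, 48.8, 47.1 and 29.9 at day 3 and 30.8, 18.8 and 37.1 at day 7 (-1.06 ± 0.29, adjusted p = 0.0215, edgeR). Its day 7 libraries lay below the vehicle libraries, with vehicle replicate 1 far above the other 2. Spermidine synthase (Srm) was at 59.3, 42.7 and 45 CPM, 32.7, 48.1, 41.7 and 25.1 and 29, 20.2 and 41.7, a difference of -0.69 ± 0.30 at day 7 that did not pass (adjusted p = 0.193, edgeR).

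None of the 5 nucleolar chaperones passed, although their median, -0.81, was the lowest after the enzymes. Ncl was at 3210, 2290 and 2830 CPM under vehicle, 2550, 2190, 2270 and 1930 at day 3 and 1800, 1090 and 1850 at day 7. Npm1 was at 3190, 2280 and 2930 under vehicle, 2210, 2200, 2240 and 1740 at day 3 and 1690, 1200 and 1910 at day 7. In both genes all day 7 libraries lay below all vehicle libraries, and the differences were -0.81 ± 0.27 and -0.81 ± 0.27 (adjusted p = 0.0694 and 0.0634, edgeR). Nolc1, a scaffold of the small nucleolar particles, was at -0.81 ± 0.26 (adjusted p = 0.0586), the helicase Ddx21 at -0.65 ± 0.25 and Mybbp1a at -0.38 ± 0.30.

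Fibrillarin (Fbl), the methyltransferase of the box C/D particles, was at 201, 206 and 176 CPM under vehicle, 217, 216, 204 and 147 at day 3 and 157, 99.8 and 155 at day 7. Dyskerin (Dkc1), the pseudouridine synthase of the H/ACA particles, was at 748, 587 and 607 under vehicle, 686, 513, 614 and 458 at day 3 and 442, 347 and 562 at day 7. Day 7 lay below vehicle in each library of both genes, but the estimates of -0.50 ± 0.25 and -0.52 ± 0.25 did not pass (adjusted p = 0.291 and 0.251, edgeR). Nop10 was at 357, 310 and 314 under vehicle, 318, 245, 278 and 190 at day 3 and 213, 176 and 266 at day 7, again with day 7 below vehicle. The partners Nop10, Nop56, Nop58 and Gar1 had estimates between -0.65 and -0.43, also short of the threshold.

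The catalytic subunits of RNA polymerase I had the smallest median of the 7 roles (-0.30). Polr1a was at 240, 174 and 171 CPM under vehicle, 252, 175, 188 and 148 at day 3 and 163, 101 and 191 at day 7. Polr1b was at 348, 248 and 250 under vehicle, 341, 289, 333 and 251 at day 3 and 262, 147 and 311 at day 7. Day 7 overlapped with vehicle in both genes, with day 7 replicates 1 and 2 of Polr1a and replicate 2 of Polr1b below the whole vehicle range (Polr1a -0.36 ± 0.27, adjusted p = 0.519; Polr1b -0.23 ± 0.28, adjusted p = 0.706, edgeR).

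Without day 7 replicate 2, or without vehicle replicate 1, 3 of the 8 calls remained (Noc4l, Nhp2 and Cad), and the members' median was -0.51 in either case. These 3 were called under each of the 13 alternatives run; Ppan kept the call in 7, Wdr43, Wdr74 and Odc1 in 10 and Rrp9 in 11. DESeq2 called 13 members lower. A member short of the threshold is not shown to be unchanged.

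**Figure D3:**
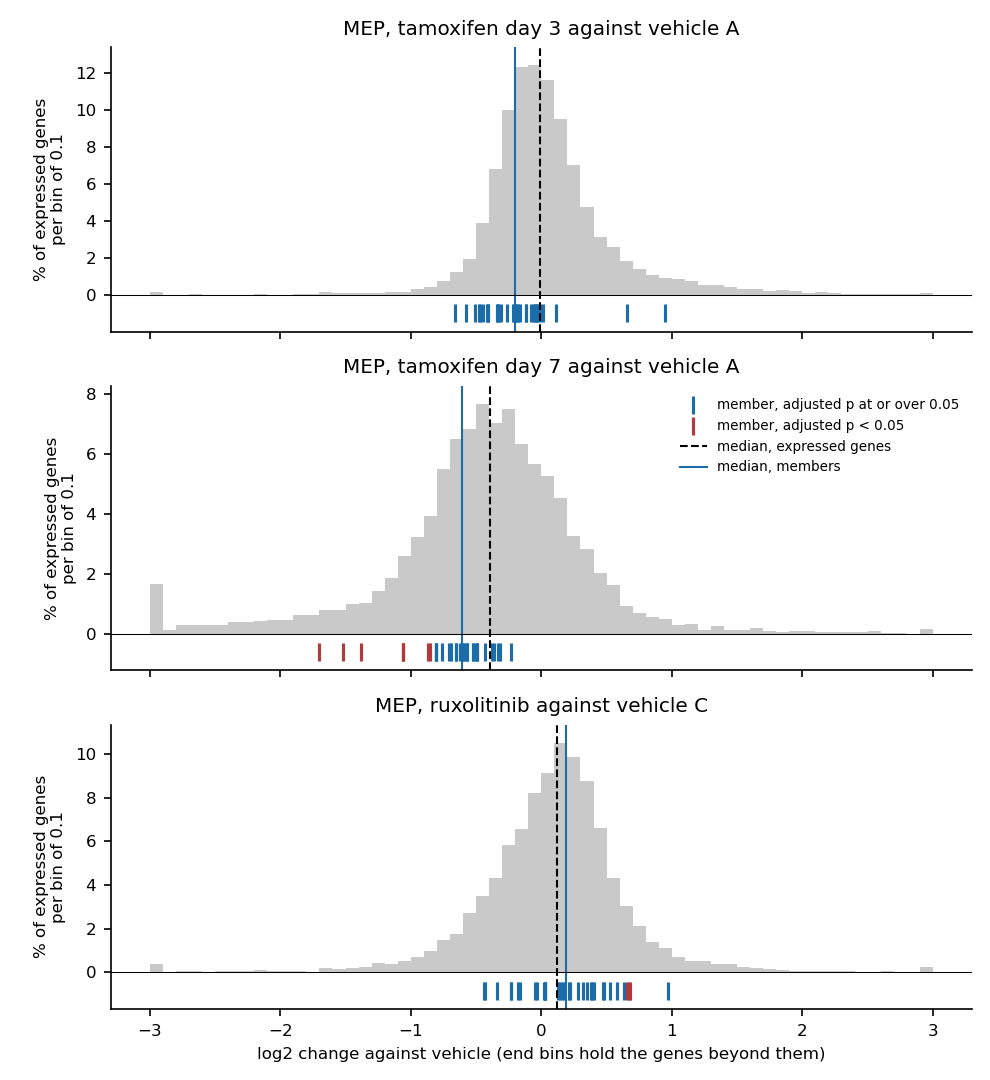
Percentage of expressed genes (y axis) per 0.1 of log2 change (x axis) in MEP at day 3, at day 7 and under ruxolitinib, each against vehicle of its batch, with the end bins holding genes beyond the axis, ticks for the 34 members and lines for both medians. At day 7 the members' median of -0.61 lies left of the expressed genes' median of -0.39, and under ruxolitinib the medians are 0.19 and 0.12.

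At day 3 no member passed in MEP, where 1.21% of all genes did (306, of which 224 were higher). Unadjusted p was under 0.05 for 3 members, Nhp2 and Odc1 lower and Cad higher, and DESeq2 called 2, Nhp2 lower and Cad higher. Of the 34 estimates 30 were negative, against 51.2% of expressed genes, with a median of -0.20 beside -0.01, and 30 lay below the latter. Without vehicle replicate 1, 19 estimates were negative and 15 positive, with a median of -0.03 beside 0.11, and 25 lay below the latter. All 4 day 3 libraries lay below vehicle for Nhp2, Npm1 and Wdr74 (5.54% of expressed genes and 3.55% of all genes) and above it for Cad (10.5% and 5.42%). With the fit restricted to expressed genes Nhp2, Wdr74 and Cad passed, at -0.62, -0.40 and 1.03 (adjusted p = 0.00783, 0.0343 and 0.0216, edgeR), and 25 of 33 estimates were negative.

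From day 3 to day 7, 5 members fell in MEP: Cad, Gar1, Noc4l, Wdr43 and Ppan, the last 4 by 1.31, 1.24, 1.01 and 0.86 on the log2 scale (adjusted p = 0.0442, 0.00447, 0.0142 and 0.0393, edgeR). That is 14.7% of the members, where 6.43% of all genes and 18.6% of expressed genes were called lower. The share called was therefore not above that of other expressed genes. The members' median was -0.39 beside -0.33 for expressed genes. With the fit restricted to expressed genes it was -0.05 beside 0.01, with 11 of 33 estimates positive. Of unscaled counts, the members took 1.48% to 1.52% at day 3 and 1.35% to 1.54% at day 7. Gar1 was a low member, at 7.98, 18.4, 9.47 and 8.21 CPM at day 3 and 4.82, 3.36 and 5.15 at day 7. It lost its call in 9 of 14 alternatives, among them edgeR's RLE size factors in place of TMM and the replicate block. The call was also lost without day 3 replicate 2 (18.4 CPM), day 3 replicate 3 or any 1 of the 3 day 7 libraries (adjusted p up to 0.305, edgeR). The count was 2 (Noc4l and Cad) without day 7 replicate 2 and also 2 without day 3 replicate 3, 3 without day 3 replicate 1 or 2 or day 7 replicate 3, and 6 without day 3 replicate 4. Noc4l and Cad passed under each of the 14 alternatives.

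Under ruxolitinib 2 members rose in MEP, Fbl and Nop10, and none fell. The 2 are 5.88% of the members, where 3.43% of all genes and 7.36% of expressed genes were called higher. The share called was therefore near that of other expressed genes. The median was 0.19 beside 0.12 for expressed genes, with 25 estimates positive and 9 negative (21 and 12 with the fit restricted to expressed genes, where Polr1a was called lower). The median over expressed genes is the reference here, since 42% of all genes passed, 9737 of the 10605 lower, and the median over all genes was -1.07.

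Fbl (chr7:28169710-28179269, plus strand) was at 200, 244 and 215 CPM in the 3 vehicle MEP of batch C and at 371, 442 and 231 under ruxolitinib, a rise of 0.66 ± 0.25 (adjusted p = 0.0374, edgeR). Ruxolitinib replicate 3 lay within the vehicle range. Nop10, the smallest protein of the H/ACA particles (chr2:112261926-112263269, plus strand), was at 411, 411 and 355 under vehicle and 615, 765 and 508 under ruxolitinib (0.68 ± 0.24, adjusted p = 0.0242, edgeR). It was the only member whose groups did not overlap (11% of expressed genes and 5.25% of all genes were separated upward).

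Ruxolitinib replicate 3 was the lowest of its group for 33 members. The count of calls was 0 without vehicle replicate 2 or without ruxolitinib replicate 2, 1 without ruxolitinib replicate 1, 5 without ruxolitinib replicate 3 and 7 without vehicle replicate 3. It was 8 with edgeR's RLE size factors or with DESeq2, and 1 (Nop10) with the spread from these 6 libraries alone.

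Noc4l was at 617, 537 and 465 CPM under vehicle and 545, 504 and 334 under ruxolitinib, Nhp2 at 731, 688 and 563 under vehicle and 900, 1030 and 598 under ruxolitinib. Cad was at 527, 530 and 772 under vehicle and 1140, 1020 and 577 under ruxolitinib. The groups overlapped for all 3, with estimates of -0.23 ± 0.29, 0.35 ± 0.25 and 0.58 ± 0.31 (adjusted p = 0.559, 0.259 and 0.13, edgeR). Rrp9 was at 302, 196 and 232 under vehicle and 446, 446 and 272 under ruxolitinib, and Wdr43 at 614, 490 and 1100 under vehicle and 817, 765 and 655 under ruxolitinib, with vehicle replicate 3 of Wdr43 above all others.

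Odc1 was at 163, 165 and 112 CPM under vehicle and 131, 182 and 111 under ruxolitinib, and Srm at 97.6, 92 and 66.6 under vehicle and 127, 137 and 68.2 under ruxolitinib. Ncl was at 2710, 2350 and 4280 under vehicle and 3480, 3770 and 3060 under ruxolitinib, Npm1 at 2640, 2210 and 4020 under vehicle and 3730, 4350 and 3660 under ruxolitinib. Vehicle replicate 3 was high for Ncl and Npm1, so that the groups overlapped. Dkc1 was at 873, 666 and 1080 under vehicle and 885, 880 and 799 under ruxolitinib, Polr1a at 211, 149 and 197 under vehicle and 174, 158 and 109 under ruxolitinib, and Polr1b at 330, 223 and 370 under vehicle and 400, 310 and 236 under ruxolitinib. None of these 7 passed, and Polr1a (-0.34 ± 0.27) was among the 9 members with a negative estimate.

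**Figure D4:**
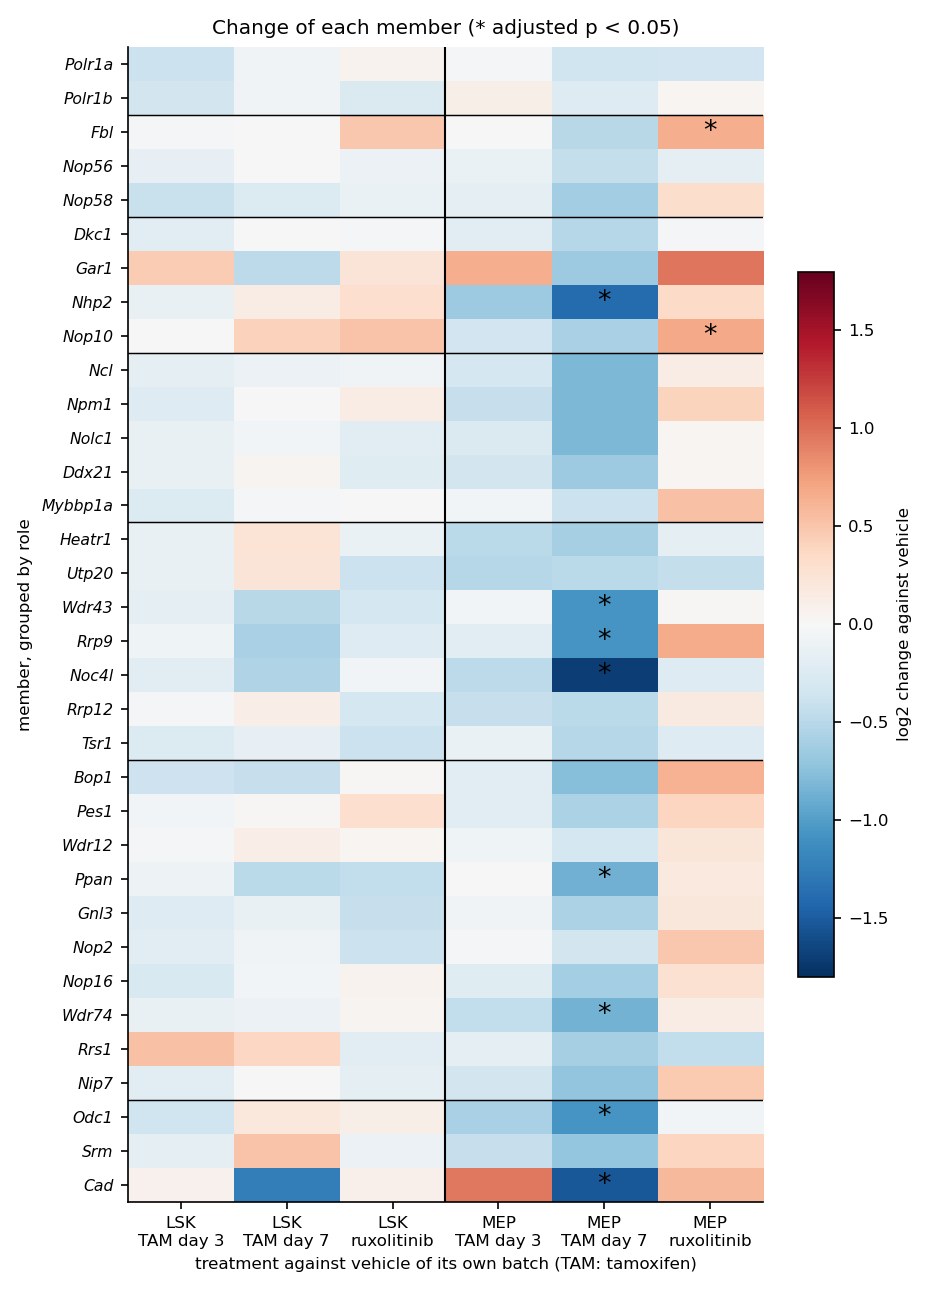
Log2 change (colour) of the 34 members (rows, grouped by role) in the 6 treatment comparisons (columns), each against vehicle of its batch, with an asterisk where the adjusted p is under 0.05. The MEP day 7 column is negative in all 34 rows with 8 asterisks, the MEP ruxolitinib column has 2 asterisks, for Fbl and Nop10, and the other 4 columns have none.

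The test of the difference between the 7-day deletion response and the ruxolitinib response in MEP called 19 of 34 members (55.9%), each with a lower response to deletion. Among all genes 9.46% were called in that direction and among expressed genes 27.9%. The median difference was -0.95 beside -0.50 for expressed genes. The largest were Cad (-2.10 ± 0.44), Nhp2 (-1.74 ± 0.35), Rrp9 (-1.73 ± 0.42) and Gar1 (-1.62 ± 0.58), with adjusted p = 0.00108, 0.000923, 0.00321 and 0.0276 (edgeR). By role, all 3 enzymes, 3 of 4 H/ACA proteins, 6 of 10 large subunit factors, 2 of 3 box C/D proteins, 3 of 7 small subunit factors, 2 of 5 chaperones and 0 of 2 polymerase subunits passed.

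With the fit restricted to expressed genes the count was 11 of 33, with 6 estimates positive (Polr1a, Polr1b, Nop56, Heatr1, Utp20 and Tsr1). It was 9 without batch C vehicle replicate 2, or without ruxolitinib replicate 2, 10 without batch A vehicle replicate 1, and 13 to 22 without any other library. Fbl, Nhp2, Nop10, Npm1, Rrp9, Noc4l, Bop1, Nip7 and Cad passed under each of the 19 alternatives. The 2 treatments were run in different batches, each with its own vehicle, so the treatment and how a batch responds cannot be told apart.

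The vehicle groups themselves differed. Between batch C and batch A vehicle, Gar1 and Odc1 were higher in batch C in both cell types, and no other member passed (0.728% of genes were called higher in LSK, 2.75% in MEP). Gar1 was at 5.13, 6.57, 6.44 and 4.49 CPM in LSK and 5.83, 8.13 and 6.99 in MEP of batch A, and at 11 and 46.6 in LSK and 11.5, 15.1 and 38.6 in MEP of batch C. Odc1 was at 24.6, 20, 19.2 and 16.7 in LSK and 83, 43.1 and 54.4 in MEP of batch A, and at 45.4 and 51.5 in LSK and 163, 165 and 112 in MEP of batch C. Odc1 did not overlap between batches in either cell type; Gar1 did not either, and within batch C it spread over a wide range.

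The shifts were 2.34 ± 0.51 in LSK and 1.64 ± 0.42 in MEP for Gar1 (adjusted p = 0.0362 and 0.0295), and 1.27 ± 0.27 and 1.28 ± 0.29 for Odc1 (adjusted p = 0.0344 and 0.0162, edgeR). The members' medians, 0.41 and 0.30, were near those of expressed genes, 0.31 and 0.32. This test took all vehicle libraries as independent, although the batches share sample numbers. Between libraries of the same number the members' median shift was 0.15 in LSK (2 pairs) and 0.28 in MEP (3 pairs). The matched shifts were 1.88 and 1.39 for Gar1 and 1.11 and 1.31 for Odc1. Treated libraries are therefore compared only with vehicle of their own batch.

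In LSK no member passed in any treatment comparison, which does not show the members to be unchanged. At day 3 no gene at all was called by edgeR (0%; 1019 of 26930 genes, and no member, had an unadjusted p under 0.05), and DESeq2 called 93 genes and no member. At day 7, 28 genes were called (0.104%), no member among them by edgeR or DESeq2, and 2 members (Cad and Wdr43) had an unadjusted p under 0.05. Under ruxolitinib 6 genes were called (0.0223%), and no member passed with edgeR, also at an unadjusted 0.05, or with DESeq2. The medians of -0.16, -0.04 and -0.08 lay beside -0.13, -0.07 and 0.15 for expressed genes.

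The lowest LSK estimate at day 7 was that of Cad, -1.24 ± 0.47 (adjusted p = 0.343, edgeR). It was at 228, 671, 358 and 211 CPM under vehicle, 570, 358 and 235 at day 3 and 104, 68, 99.5 and 350 at day 7. Day 7 replicates 1 to 3 lay below all vehicle and day 3 libraries, and replicate 4 lay among them. Without replicate 4, Cad was called at -2.02 ± 0.41 (adjusted p = 0.00614, edgeR), and 911 genes were called (3.38%) in place of 28.

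Noc4l in LSK was at 165, 202, 112 and 156 CPM under vehicle, 181, 134 and 99.6 at day 3 and 155, 86.7, 69.6 and 127 at day 7. Rrp9 was at 125, 141, 89.1 and 93.7 under vehicle, 133, 111 and 73.8 at day 3 and 110, 61.3, 46.7 and 82.7 at day 7, and Wdr43 at 384, 448, 288 and 364 under vehicle, 432, 335 and 220 at day 3 and 287, 250, 226 and 289 at day 7. The groups overlapped in all 3. Their estimates at day 7 were -0.54 ± 0.28, -0.58 ± 0.30 and -0.50 ± 0.24, and with Cad and Ppan (-0.48 ± 0.26) they hold the 5 lowest places of the 34 in LSK. These 5 are among the 8 that fell in MEP; they were picked out after their values were seen, none passed in LSK, and some LSK and MEP libraries share a sample number.

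Nhp2 in LSK was at 219, 226, 163 and 156 CPM under vehicle, 220, 177 and 123 at day 3 and 241, 187, 261 and 148 at day 7, and Nop10 at 171, 236, 141 and 134 under vehicle, 209, 196 and 107 at day 3 and 244, 243, 262 and 156 at day 7. Odc1 was at 17.1, 15.1 and 14.7 at day 3 and 22.3, 23.2, 27.8 and 18.4 at day 7, and Srm at 38.3, 40.7, 17 and 28.8 under vehicle, 32.8, 30.7 and 18.7 and 56.6, 35.4, 54.1 and 31.9. Day 7 overlapped with vehicle in all 4. At day 3, replicate 3 was the lowest of its group for 33 members; for Ncl, for example, the LSK libraries were at 1800, 1960, 1320 and 1390 under vehicle, 1760, 1460 and 1050 at day 3 and 1460, 1430, 1910 and 1230 at day 7. Macrophage markers summed to 1250 to 8380 CPM in day 3 LSK and 137 to 3250 in vehicle LSK, with no list gene at 0 throughout, and their part in the members' values was not tested.

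In LSK, Npm1 was at 1510, 1560, 950 and 1240 under vehicle, 1390, 1160 and 820 at day 3 and 1330, 1340, 1660 and 961 at day 7. Fbl was at 117, 161, 110 and 98.8 under vehicle, 138, 137 and 81.8 at day 3 and 139, 130, 121 and 96.4 at day 7. Dkc1 was at 431, 554, 316 and 378 under vehicle, 453, 407 and 239 at day 3 and 416, 430, 480 and 356 at day 7. Polr1a was at 150, 201, 125 and 88.7 under vehicle, 142, 116 and 66.1 at day 3 and 143, 118, 161 and 119 at day 7, and Polr1b at 213, 252, 147 and 192 under vehicle, 212, 160 and 108 at day 3 and 199, 164, 246 and 162 at day 7. In all 5 genes the libraries of both days overlapped with vehicle.

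Under ruxolitinib, the LSK values of the genes that rose in MEP were 159 and 202 CPM in the 2 vehicle libraries and 324, 220 and 212 in the 3 treated ones for Fbl, and 266 and 357 under vehicle and 594, 413 and 324 under ruxolitinib for Nop10. Fbl in all 3 treated libraries lay above both vehicle libraries, as did 14% of expressed genes (8.46% of all genes), and Nop10 did not separate. The estimates were 0.48 ± 0.31 and 0.51 ± 0.36 (adjusted p = 0.608 and 0.632, edgeR). Ruxolitinib replicate 1 was the highest of the 16 LSK libraries for 18 members, as for Nhp2 (552, 350 and 257) and Npm1 (2380, 1620 and 1200). The members' median turned from -0.08 to 0.03 with edgeR's RLE size factors and to -0.31 with the fit restricted to expressed genes. No direction against 0 is therefore given for the group. The medians of expressed genes in these fits were 0.15, 0.24 and -0.03. Below them lay 29 and 28 of the 34 members, and 28 of the 33 kept by the restricted fit.

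In LSK, Noc4l was at 193 and 255 CPM under vehicle of batch C and 260, 223 and 168 under ruxolitinib. Rrp9 and Wdr43 were at 110 and 196 under vehicle and 179, 124 and 87.6 under ruxolitinib, and at 492 and 424 under vehicle and 427, 367 and 306 under ruxolitinib, respectively. Nhp2 under vehicle was at 290 and 335. None of the 4 passed (lowest adjusted p = 0.709, edgeR).

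Cad was at 331 and 554 under vehicle and 495, 527 and 386 under ruxolitinib, Odc1 at 45.4 and 51.5 under vehicle and 72.4, 45.7 and 38.6 under ruxolitinib, and Srm at 58.8 and 74.4 under vehicle and 90.3, 61.1 and 35.1 under ruxolitinib. Ncl was at 2050 and 1710 under vehicle and 2280, 1740 and 1360 under ruxolitinib, and Npm1 under vehicle at 1710 and 1430. Dkc1, Polr1a and Polr1b under vehicle were at 641 and 565, at 94 and 119 and at 191 and 209, and under ruxolitinib at 722, 559 and 497, at 113, 131 and 89.9 and at 186, 185 and 128. Over the 34 members, the treated libraries lay below both vehicle libraries in 4 (Polr1b, Utp20, Tsr1 and Gnl3), where 4.62% of expressed genes and 12.3% of all genes were separated that way, and above them in 1 (Fbl).

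No member passed between day 7 and day 3 in LSK (0.00743% of genes did; 2 members had an unadjusted p under 0.05 and DESeq2 called none), nor between the deletion response and the ruxolitinib response (0.00371% of genes; 0 members at an unadjusted 0.05 and none with DESeq2). Without day 7 replicate 4, Cad was called lower at day 7 than at day 3.

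Whether MEP and LSK respond differently was tested directly. At day 7 all 34 members had a lower estimated response in MEP than in LSK (Polr1b and Gar1 turned positive with the fit restricted to expressed genes), with a median difference of -0.66 beside -0.32 for expressed genes, but none passed (0.458% of genes did). Nhp2 came closest, at -1.61 ± 0.40 (adjusted p = 0.0623, edgeR), 10 members had an unadjusted p under 0.05, and DESeq2 called 2 (Nhp2 and Odc1). With the fit restricted to expressed genes 4 passed (Nhp2, Nop10, Noc4l and Odc1). Without LSK vehicle replicate 2, or without LSK day 7 replicate 4, Nhp2 passed. At day 3 and under ruxolitinib no member passed with edgeR or DESeq2 (0.0529% and 0.292% of genes did with edgeR, and 0 and 1 of the members had an unadjusted p under 0.05). Under ruxolitinib 32 of the 34 estimates were higher in MEP than in LSK, and 29 of 33 in the restricted fit. The median difference was 0.38 beside 0.08 for expressed genes. At day 3, 16 were higher and 18 lower, with a median of -0.08 beside 0.15.

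Other genes of the same pathways were taken from lists that hold none of the 34. In MEP at day 7, 15 of 46 other small subunit genes, 10 of 46 other large subunit genes and 4 of 13 other RNA polymerase I genes fell, and none rose, with medians of -0.63, -0.64 and -0.48. Rcl1 and Dhx37, both in small subunit processing, fell by 2.95 and 2.37 on the log2 scale, Tex10 and Nle1 of large subunit assembly by 2.03 and 1.83, and Rrn3 and Ubtf, initiation factors of RNA polymerase I, by 1.27 and 1.25 (edgeR, adjusted p = 0.00596 for Rrn3 and 0.00293 for Ubtf). Without day 7 replicate 2 these counts were 5, 4 and 2, and without vehicle replicate 1 they were 4, 4 and 2. These shares stand beside the 20.7% of expressed genes called lower.

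Of 45 other MYC targets 13 fell at day 7 in MEP (8 without day 7 replicate 2) and of 12 genes of the polyamine pathway 5 did (4 without it). Phb2, a mitochondrial prohibitin, and Eif4ebp1, an inhibitor of cap-dependent translation, fell by 3.64 and 3.26 (adjusted p = 2.06e-06 and 8.26e-07, edgeR). Dohh and Dhps, which make hypusine from spermidine, were at -3.74 and -2.28, and Eif5a, the protein that carries hypusine, at -1.82, all called. Under ruxolitinib Dohh and Dhps were higher in MEP, by 0.99 and 0.88, and the lists had 6 higher and 3 lower among MYC targets and 5 higher and 1 lower in the polyamine pathway (2 and 3, and 3 and 1, without vehicle replicate 2). Of the other small subunit genes 2 of 46 rose (Rcl1 0.67 and Tbl3 0.65), of the other large subunit genes 1 of 46 rose (Eif6, 0.67) and 1 fell (Mdn1, log2 change -1.19), and of the other RNA polymerase I genes none of 13 passed. Without vehicle replicate 2 the small subunit list had 0 calls and the large subunit list 1 lower, and without vehicle replicate 3 the 3 lists had 4, 6 and 3 higher. Beside these counts, 7.36% of expressed genes were called higher and 6.71% lower (3.43% and 38.5% of all genes). At day 3 in MEP 1 MYC target rose (Eif4ebp1, 1.41 ± 0.33) and 1 fell (Hspe1, -0.83 ± 0.21), and no other gene of these lists passed. In LSK no gene of these 5 lists was called in the 3 treatments.

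Myc itself passed in no comparison. Its MEP level was 417 ± 63.5 CPM with vehicle (SD over 3 libraries), 518 ± 99.3 after 3 days of tamoxifen (4 libraries) and 447 ± 208 after 7 days (3 libraries), and in batch C 552 ± 64.5 with vehicle and 783 ± 160 with ruxolitinib (3 libraries each). Of the 13 genes of the MYC network, Mxd4, which competes with MYC for MAX, rose in MEP: from 6.05 to 12.2 CPM under vehicle to 23.6 to 34.3 at day 3 and 33.7 to 38.8 at day 7. No treated library reached the vehicle range, and the changes were 1.69 ± 0.32 and 1.98 ± 0.34 (adjusted p = 0.00585 and 0.000205, edgeR). Mxd3 and Mlx fell at day 7, by 1.51 and 0.81 (adjusted p = 0.033 and 0.0327), and neither passed without day 7 replicate 2. Max, Mxd1, Mxi1, Mnt and Mga passed in none of the 6 treatment comparisons.

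Mycn, another MYC family member, was at 32.6 to 262 CPM in LSK under vehicle of batch A and at 5.5 to 30 at day 7, a fall of 3.07 ± 0.57 on the log2 scale (adjusted p = 0.0417, edgeR) that did not pass without vehicle replicate 2 (262 CPM) or with the spread from the compared groups alone. In MEP it was 0.291 to 3.4 CPM under batch C vehicle and 10.1 to 15.2 under ruxolitinib (2.82 ± 0.58, adjusted p = 0.000765, edgeR).

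Other measures moved with the MEP day 7 group. Beside the counts that follow, 350 of the 25274 genes tested were called higher and 1778 lower, and 20.7% of expressed genes were called lower. Of 15 cycling genes 11 fell (log2 change -4.69 for Cdc20 and -2.60 for Ccnb2; 6 without day 7 replicate 2, 8 without vehicle replicate 1), and their summed CPM was 6200 to 8000 under vehicle, 4750 to 7130 at day 3 and 2400 to 4160 at day 7. Of 15 erythroid markers 7 fell (summed 14300 to 22500 CPM under vehicle, 10300 to 16000 at day 7), and 8 of 13 megakaryocyte markers rose (89.1 to 137 and 319 to 516 CPM). Stem cell markers rose in 3 of 12 (290 to 594 and 750 to 1280 CPM), granulocyte and monocyte markers in 5 of 10 (18.9 to 20.6 and 66.4 to 95.6 CPM) and lymphoid markers in 3 of 9 (10.2 to 32 and 92.4 to 153 CPM), while 0 of 8 macrophage markers passed. No listed marker was at 0 in all libraries of a group. The part of these shifts, and of the lower depth of the day 7 libraries (11160696 to 20108752 counts, against 20749870 to 24083993 under vehicle), in the members' values was not tested.

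Under ruxolitinib, the MEP sums were 22500 to 26200 CPM for erythroid markers (23100 to 26200 under vehicle; 2 rose and 4 fell), 301 to 451 for megakaryocyte markers (61.6 to 144; 7 rose and 1 fell) and 63.6 to 207 for granulocyte and monocyte markers (5.76 to 18; 6 rose and 2 fell). Cycling genes summed to 7970 to 10400 CPM, against 9070 to 10300 under vehicle, and 1 of 15 fell (Mki67, by 1.19). Their part in the rises of Fbl and Nop10 was not tested. Beside these counts, 868 of the 25274 genes tested in MEP were called higher and 9737 lower. In LSK at day 7, granulocyte and monocyte markers summed to 8130 to 16100 CPM against 1560 to 5010 under vehicle. Of these markers 4 of 11 rose, where 15 of 26930 genes tested did, and no member passed.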

How the data were processed

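RNA was extracted with TriZOL and Direct-Zol and paired-end libraries were made with a Takara HT-Seq kit, per the labels' protocols. The submitters' processing notes name STAR, featureCounts and mm10; versions, annotation, strand mode and the handling of reads that match several places are not given in those notes. The authors deposited unnormalized counts for each gene, 1 table of 32 libraries with 11160696 to 55473241 counts each.

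Counts were tested with edgeR 4.0.16 (TMM scaling, filterByExpr with a minimum count of 10, quasi-likelihood F test, Benjamini-Hochberg adjusted p under 0.05 over all genes tested) in R 4.3.3. One fit held the 16 LSK libraries (26930 genes), one the 16 MEP libraries (25274 genes) and one all 32 (28378 genes, for MEP against LSK and the differences between their responses). Each treatment was compared with vehicle of its own batch. CPM came from edgeR's cpm function with TMM-scaled library sizes. Log2 changes are given ± SE. The test was checked on simulated counts with known changes in 100 expressed genes of each size. At a log2 change of 1 it found 25 of 100 for MEP at day 7 and 11 of 100 for LSK at day 7. At a log2 change of 2 it found 94 and 90, with 3 and 4 false calls. Alternatives were DESeq2 1.42.0, edgeR with its RLE size factors in place of TMM, and no count filter. Others were genes with a mean CPM of at least 10 only (called expressed genes) and the compared groups alone. Replicate and sample numbers were also used as a block (limma 3.58.1 for the latter), and each library was left out in turn.

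All 34 members are accounted for. Values in every library are given for those called in a treatment comparison, at most the 6 with the smallest p in each, and for Ncl, Npm1, Fbl, Polr1a, Polr1b, Dkc1, Odc1 and Srm; of the other lists, up to 4 called genes with the largest change. The members and lists were chosen with earlier results of these data known. Positions are from GENCODE on mm10. Exons of Tsr1 overlap those of Srr on the opposite strand over 32.3% of their length, so that with the strand setting unknown its counts are uncertain. Libraries of treated and vehicle groups were matched by the replicate number of their titles, and most matched libraries do not share a sample number. Their deviations had correlations from -0.33 to 0.35, so replicate numbers were not used to pair samples.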

Additional observations from a re-analysis of the deposited data

Results flagged for a closer look

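Among 102 tests for a library set apart from the others of its group (groups of 4), 6 were positive, where chance gives about 5%. In vehicle LSK of batch A, replicate 2 was at 261 CPM for Pes1 (others 156 to 164) and at 255 for Ppan (others 152 to 166). In day 7 LSK, replicate 4 was at 350 CPM for Cad (others 68 to 104). In day 3 MEP, replicate 2 was at 18.4 CPM for Gar1 (others 7.98 to 9.47), and replicate 4 was at 1740 for Npm1 (others 2200 to 2240) and at 222 for Ppan (others 290 to 298).

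The response to 7 days of deletion differed from the response to ruxolitinib in MEP for 19 members, by the test of that difference (edgeR, adjusted p under 0.05). On the log2 scale the differences, deletion minus ruxolitinib, were -1.16 for Fbl, -0.94 for Nop58, -1.62 for Gar1, -1.74 for Nhp2 and -1.26 for Nop10 among the small nucleolar particle proteins. They were -0.95 for Ncl and -1.21 for Npm1, and -1.08 for Wdr43, -1.73 for Rrp9 and -1.47 for Noc4l. Among large subunit factors they were -1.39 for Bop1, -0.96 for Pes1, -1.04 for Ppan, -0.88 for Nop16, -0.98 for Wdr74 and -1.18 for Nip7. Among the enzymes they were -1 for Odc1, -1.07 for Srm and -2.1 for Cad. The treatments belong to different batches, so treatment and batch cannot be told apart here.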

How the results depend on the processing

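No direction of a called result reversed. Counts of members called moved as follows. For MEP at day 3 (0) the count was 2 with DESeq2, 3 with expressed genes only and 1 with the compared groups alone. For MEP at day 7 (8) it was 13 with DESeq2. For MEP under ruxolitinib (2) it was 8 with RLE size factors, 8 with DESeq2 and 1 with the compared groups alone. For the deletion against the ruxolitinib response in MEP (19) it was 11 with expressed genes only. For MEP against LSK under batch C vehicle (22) it was 2 with the compared groups alone. The difference between the MEP and LSK responses at day 7 (0) had 1 with RLE size factors, 2 with DESeq2 and 4 with expressed genes only. With the replicate number as a block, that last count was 1. For MEP against LSK under batch A vehicle (29) the count was 16, for the difference at replicate 1. Leaving out 1 library gave 0 to 1 members for LSK at day 7 and for LSK day 7 against day 3, 3 to 9 for MEP at day 7, 0 to 7 for MEP under ruxolitinib, 2 to 6 for MEP day 7 against day 3, 9 to 22 for the deletion against the ruxolitinib response in MEP, 13 to 32 and 7 to 27 for MEP against LSK in batches A and C, and 0 to 1 for the difference between responses at day 7; LSK at day 3 and under ruxolitinib, MEP at day 3 and the other differences of responses stayed at 0. Counts over all genes moved too. LSK at day 7 had 28, with 334 in DESeq2 and 66 with expressed genes only. It had 9 with the compared groups alone and 230 with the replicate block. LSK at day 3 had 0 and, with DESeq2, 93. LSK under ruxolitinib had 6 and, with DESeq2, 132. MEP at day 3 had 306, with 682 in DESeq2, 773 with expressed genes only and 633 with the compared groups alone. MEP under ruxolitinib had 10605, with 3090 for the compared groups alone and 1123 for expressed genes only. In LSK day 7 against day 3, 1 gene was higher and 1 lower. With DESeq2 these were 43 and 265, and with expressed genes only 30 and 222. For the difference between the MEP and LSK responses at day 7 they were 84 and 46, and with DESeq2 520 and 377. With expressed genes only, 1237 genes were higher and 1561 lower in MEP at day 7, against 350 and 1778. The cause of these shifts was not tested. Groups of 2 to 4 libraries limit what can be called.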
